A study of Homo sapiens with 15 samples.

Results

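The genes examined here encode 10 enzymes and scaffold proteins of base excision repair. They were chosen by name with earlier results of these data known, so their number of calls is a description. They are the DNA glycosylases UNG, NEIL2, NTHL1, MPG and OGG1, the AP endonucleases APEX1 and APEX2, the flap endonuclease FEN1, the scaffold XRCC1 and the ligase LIG3. Each count table listed 47634 gene identifiers, and all 10 genes were among the 11113 that passed the filter on low counts. Gene expression was measured by QuantSeq 3′ mRNA sequencing in 15 libraries of IGROV-CP20, a human ovarian cancer cell line with resistance to cisplatin, in 5 conditions of 3 biological replicates each. The conditions were untreated cells, cells exposed to 50 µM cisplatin for 24 h, and cells that received the same cisplatin exposure after 24 h with 10 µM Telmisartan, Tranilast or Amphotericin B. Every condition used the same resistant line, a single model of platinum resistance. Libraries with a drug and no cisplatin were not analysed here, so each drug is read on top of cisplatin.

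Base excision repair removes small lesions such as uracil and oxidised or alkylated bases. A glycosylase releases the damaged base, an AP endonuclease cuts the backbone at the abasic site, and the gap is then filled and sealed either by the short-patch route, in which XRCC1 and LIG3 act with DNA polymerase beta, or by the long-patch route, in which FEN1 trims a displaced flap. Cisplatin adducts are mainly substrates of nucleotide excision repair, and several base excision enzymes, UNG and FEN1 among them, also act at the replication fork. The question of these comparisons was how cisplatin, alone or after each drug, altered the transcript levels of this pathway.

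Total counts per library lay between 1510620 and 3517041, and the lowest count of a member in any library was 10, for XRCC1. Levels are given as CPM, the count of a gene relative to its library total after scaling with TMM factors (trimmed mean of M values), and are compared between conditions only, never between genes. Cisplatin replicate 1 and Telmisartan replicate 3 stood apart from their own replicates. The chi-square per degree of freedom of their counts was 26.4 and 43.1 against the other cisplatin libraries, which differed from each other by 8.07. For Telmisartan replicate 3 it was 37.8 and 44.2, against 3.43 between the other Telmisartan libraries. The share of counts on mitochondrial ribosomal RNA was 1.79% to 2.20% in untreated, 2.10% to 2.53% in Tranilast and 12.3% to 14.8% in Amphotericin B libraries. It ranged from 3.41% to 13.7% in cisplatin and from 3.61% to 12.9% in Telmisartan libraries. Of 8 epithelial and ovarian markers, KRT18 had at least 182 counts, and EPCAM and KRT8 at least 14, in every library, whereas PAX8, WT1 and MSLN had at most 1. KRT19 had 0 to 16 counts and MUC16 0 to 4. Marker levels, unlike the other levels here, were scaled to the library total alone, without TMM factors. The summed level of these 8 markers was 168 to 177 CPM in untreated, 141 to 186 in cisplatin, 175 to 176 in Telmisartan, 177 to 203 in Tranilast and 152 to 182 in Amphotericin B libraries. Of 8 markers of other cell types, 7 were among the identifiers, and CD3E and VWF were at 0 in every library. PTPRC had 5 to 296 counts, COL1A1 14 to 111, ALB 1 to 19, and CD14 and DCN 0 to 4. On the same scale without TMM factors, the summed level of these 7 markers was 86.0 to 97.6 CPM in untreated against 18.1 to 55.0 CPM in all other libraries. The part of these differences in the results below was not tested. A fit with the ribosomal share as a covariate was run, and no fit included the marker levels. The share in untreated and Tranilast libraries did not overlap that with cisplatin alone, Telmisartan or Amphotericin B. In comparisons between those groups the fit cannot separate the share from the treatment.

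The sequence upstream of the start site is shown for 3 genes: UNG and APEX2, which moved with cisplatin, and LIG3, which did not pass the test. RefSeq promoter sequences (GRCh38.p14) were at hand for 9 of the 10 genes, all but NEIL2, in 10 windows, since UNG has 2 annotated starts. The upstream start gives the nuclear enzyme and the downstream start the mitochondrial one, and 3′ end counts do not separate them. Each line shows 200 bases on the coding strand, from 250 to 51 bases before the start. Capitals mark a CCAAT box (CCAAT, or ATTGG on the other strand) or an E2F-like motif (TTTNNCGC, either strand).
UNG upstream start, chr12:109097347-109097546, plus strand: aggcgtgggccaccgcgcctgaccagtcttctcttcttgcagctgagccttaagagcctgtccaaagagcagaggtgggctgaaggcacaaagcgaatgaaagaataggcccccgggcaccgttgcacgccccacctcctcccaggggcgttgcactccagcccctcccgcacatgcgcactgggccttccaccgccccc
UNG downstream start, chr12:109097922-109098121, plus strand: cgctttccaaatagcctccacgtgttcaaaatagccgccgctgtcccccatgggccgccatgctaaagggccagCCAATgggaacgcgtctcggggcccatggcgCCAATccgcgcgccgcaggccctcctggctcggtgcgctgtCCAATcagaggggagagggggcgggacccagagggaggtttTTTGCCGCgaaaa
APEX2, chrX:55000113-55000312, plus strand: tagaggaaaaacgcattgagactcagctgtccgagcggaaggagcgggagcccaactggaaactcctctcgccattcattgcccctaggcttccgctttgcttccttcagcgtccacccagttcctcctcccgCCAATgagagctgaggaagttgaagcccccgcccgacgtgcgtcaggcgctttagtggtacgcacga
LIG3, chr17:34980262-34980461, plus strand: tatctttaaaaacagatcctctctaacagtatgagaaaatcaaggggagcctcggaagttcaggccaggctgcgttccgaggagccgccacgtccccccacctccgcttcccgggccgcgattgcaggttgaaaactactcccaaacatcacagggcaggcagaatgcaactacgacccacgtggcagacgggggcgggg

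Over the 250 bases before the start, the E2F-like motif was present in 1 of these 9 genes, UNG, at 63 bases before its downstream start, and in 5.92% of 35116 RefSeq promoters. The downstream window of UNG also held 3 CCAAT boxes, whereas the upstream window held none. A CCAAT box was found in 6 of the 9 genes (UNG, MPG, OGG1, APEX1, APEX2 and XRCC1) and in 32% of all promoters. A GC box (GGGCGG, either strand) was found in 7 of the 9 genes and in 42.6% of all promoters. The genes with a CCAAT box thus included genes that rose with cisplatin and genes that did not pass the test. FEN1, which rose with cisplatin, had no match to any of these motifs. NTHL1, which also rose, had no E2F-like motif and no CCAAT box. A match describes these letters and not the binding of a factor.

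Cisplatin against untreated cells raised 7 of the 10 genes and lowered none past an adjusted p of 0.05 (edgeR quasi-likelihood test, Benjamini-Hochberg over all 11113 genes). Of all genes tested, 21.1% were higher by the same rule and 23.6% lower. In each of the 7 genes every cisplatin library exceeded every untreated one, as in 24% of all genes. The 7 genes were 4 of the 5 glycosylases (UNG, NEIL2, NTHL1 and MPG), both AP endonucleases and FEN1. OGG1, XRCC1 and LIG3 did not pass. The median log2 fold change over the 10 genes was 1.14, beside -0.01 over all genes. In these bulk cultures, more transcript per cell and a larger share of cells with the transcript cannot be told apart.

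**Figure D1:**
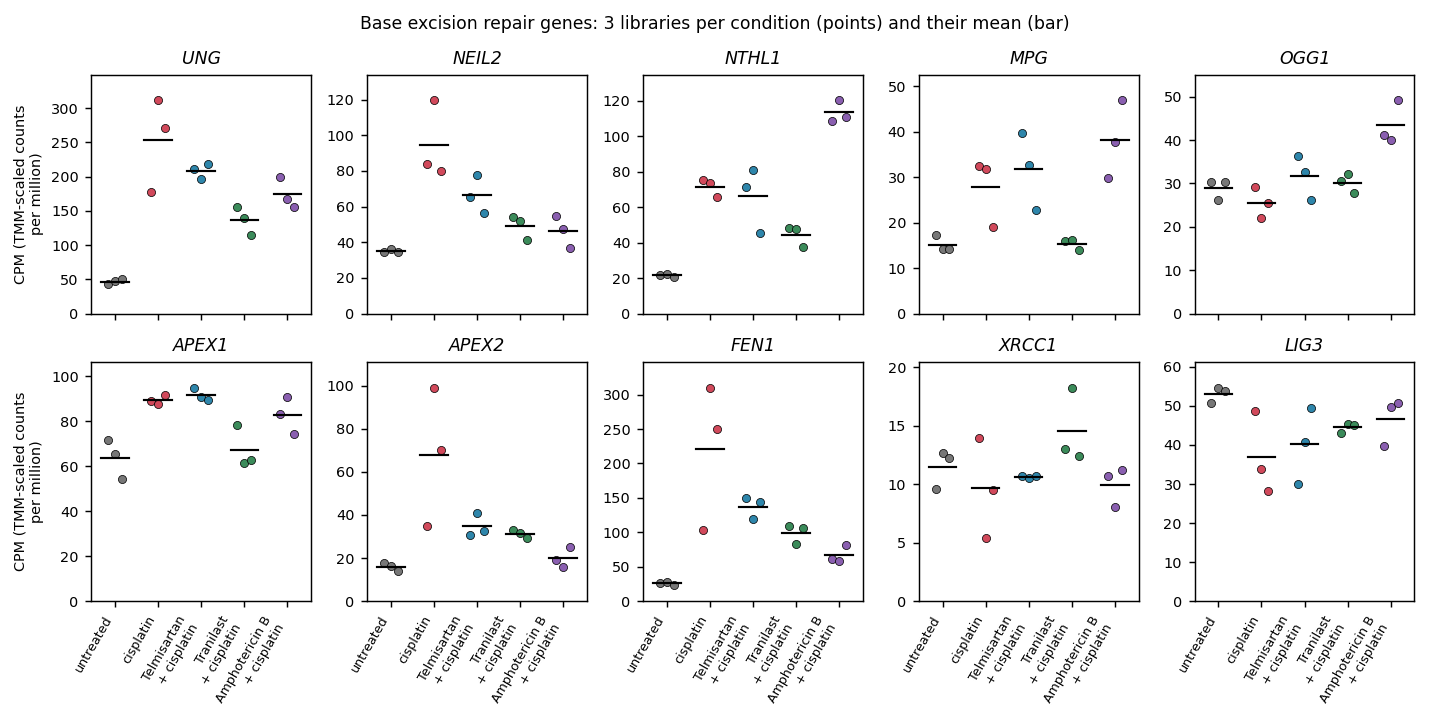
Level of each gene in CPM (TMM-scaled, vertical axis from 0, one scale per panel) in the 3 libraries of each of 5 conditions (points) with their mean (bar). FEN1 and UNG libraries with cisplatin all lay above the untreated ones (26.02 CPM and 46.7 CPM on average), and NTHL1 was highest with Amphotericin B (113.4 CPM on average). XRCC1 overlapped the untreated libraries in every treated condition. Its Tranilast libraries all lay above those with Telmisartan and with Amphotericin B, without passing the test.

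UNG, which excises uracil from DNA, was at 43.4, 46.9 and 49.9 CPM in untreated replicates 1 to 3 and at 177.5, 311.5 and 270.5 CPM with cisplatin. Every cisplatin library exceeded every untreated one, and replicate 1 was the lowest with cisplatin. The rise was 5.42-fold (log2 fold change 2.44 ± 0.21 SE, adjusted p = 1.23e-06). NTHL1, a glycosylase for oxidised pyrimidines, was at 21.7, 22.4 and 20.9 CPM in untreated cells and at 75.0, 73.6 and 65.9 CPM with cisplatin. Here all 3 cisplatin libraries were close together, at 71.5 ± 4.89 CPM (SD, n = 3), and the rise was 3.29-fold (1.72 ± 0.21, adjusted p = 1.32e-05). NEIL2, which also acts on oxidised pyrimidines, was at 34.7, 36.3 and 34.6 CPM in untreated cells and at 84.0, 119.7 and 80.2 CPM with cisplatin. Its rise was 2.68-fold (1.42 ± 0.21, adjusted p = 5.14e-05). MPG, which removes alkylated purines, had the lowest cisplatin value of its group near the untreated range: 17.2, 14.1 and 14.3 CPM untreated against 32.5, 31.9 and 19.1 CPM with cisplatin. Its rise of 1.82-fold (0.86 ± 0.26, adjusted p = 0.0138) did not hold without untreated replicate 3 or without cisplatin replicate 2. OGG1, the glycosylase for oxidised guanine, was at 30.3, 26.2 and 30.3 CPM untreated and at 29.1, 22.1 and 25.4 CPM with cisplatin. These groups overlapped, with a log2 difference of -0.18 and a 95% interval from -0.60 to 0.23 (adjusted p = 0.476).

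Downstream of the glycosylases, FEN1 had the steepest rise of the 10 genes. FEN1, which removes flaps in long-patch repair and in Okazaki fragment maturation, was at 26.1, 28.5 and 23.4 CPM untreated and at 103.0, 310.0 and 250.2 CPM with cisplatin. The groups were far apart although the cisplatin libraries differed widely among themselves, and the rise was 8.51-fold (3.09 ± 0.30, adjusted p = 4.06e-06). APEX2, an AP endonuclease that binds PCNA and has a strong exonuclease activity, was at 17.9, 16.1 and 14.0 CPM untreated and at 34.7, 99.1 and 70.3 CPM with cisplatin. Replicate 1 was again the lowest cisplatin library, and the rise was 4.27-fold (2.10 ± 0.29, adjusted p = 3.41e-05). APEX1, the main AP endonuclease of human cells, moved far less: 71.7, 65.3 and 54.2 CPM untreated and 89.0, 87.8 and 91.7 CPM with cisplatin, a rise of 1.41-fold (0.49 ± 0.17, adjusted p = 0.0239). The APEX1 call was lost without untreated replicate 2, without untreated replicate 3 and without cisplatin replicate 3.

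The short-patch scaffold and ligase did not pass the test. LIG3, which seals the nick in short-patch repair and in mitochondria, was at 50.7, 54.7 and 53.7 CPM untreated and at 48.7, 33.8 and 28.2 CPM with cisplatin. Every cisplatin library was below every untreated one, but the log2 difference of -0.53 ± 0.22 missed the threshold (adjusted p = 0.0533). It passed in 8 of 27 alternatives, among them the fit without cisplatin replicate 1 (-0.78, adjusted p = 0.00585). XRCC1, the scaffold that brings LIG3 and DNA polymerase beta to a break, had 10 to 67 counts per library and was at 9.6, 12.7 and 12.2 CPM untreated and at 14.0, 5.4 and 9.5 CPM with cisplatin. The XRCC1 groups overlapped, and the interval of the log2 difference ran from -0.91 to 0.38 (adjusted p = 0.499).

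Scaling by library size alone, without TMM factors, moved the median log2 fold change of all genes from -0.01 to -0.36 in this comparison. UNG, NEIL2, NTHL1, APEX2 and FEN1 then still rose, with log2 fold changes of 1.07 to 2.80, MPG and APEX1 lost the call and LIG3 was lower (-0.93, adjusted p = 0.00943). The calls over all genes then split into 3351 lower and 1019 higher, against 2622 and 2345 with TMM. With the ribosomal share as a covariate, 6 of the 10 genes were higher and 1 lower, beside 2676 higher and 2721 lower over all genes.

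**Figure D2:**
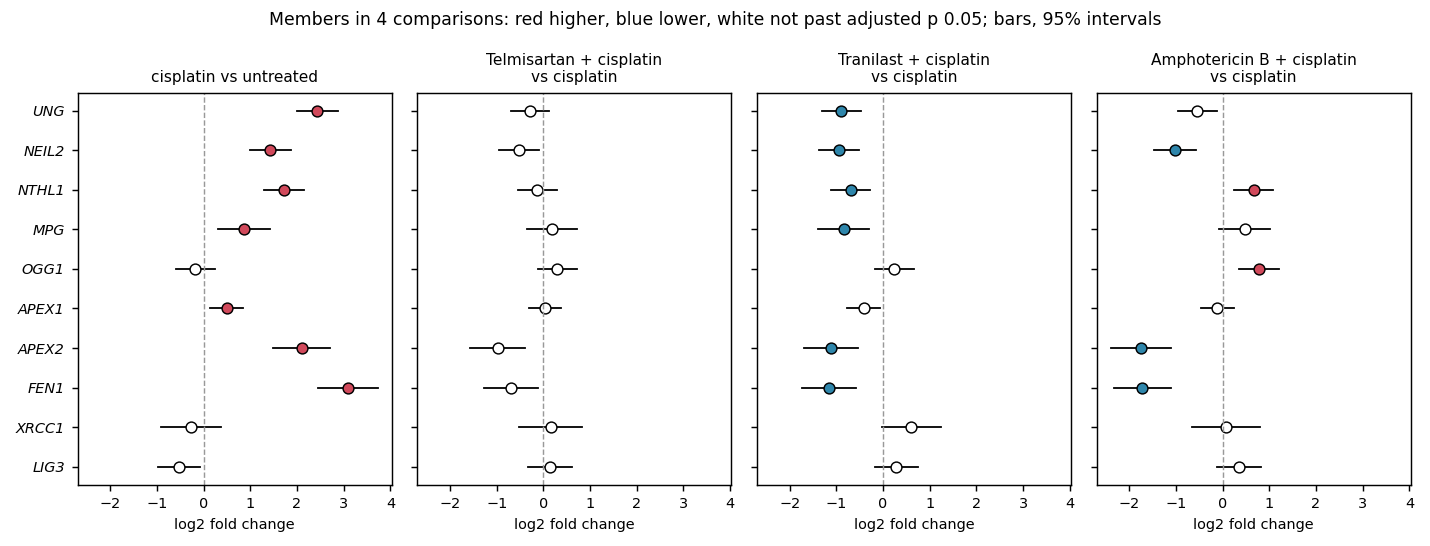
Log2 fold change of each gene (horizontal axis) with its 95% interval for cisplatin against untreated cells and for each drug plus cisplatin against cisplatin alone. Filled points passed an adjusted p of 0.05 (red higher, blue lower): 7 higher with cisplatin, none with Telmisartan, 6 lower with Tranilast, and 3 lower and 2 higher with Amphotericin B.

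Tranilast plus cisplatin was compared with cisplatin alone to ask whether the drug changes the response to cisplatin, and all 3 drugs were set against one set of 3 cisplatin libraries. Tranilast lowered 6 of the 10 genes and raised none, beside 11.6% of all genes lower and 10.5% higher. The 6 genes were UNG, NEIL2, NTHL1, MPG, APEX2 and FEN1, with log2 fold changes of -0.69 to -1.15. UNG, NEIL2, NTHL1, MPG, APEX2 and FEN1 also make up part of the base excision repair category that the study drew from these libraries for genes lowered by Tranilast, so their direction is not independent evidence. The median log2 fold change over the 10 genes was -0.77, beside 0.02 over all genes.

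UNG was at 154.8, 139.3 and 115.1 CPM with Tranilast plus cisplatin. All 3 values were below the lowest cisplatin library (177.5 CPM), a log2 fold change of -0.89 ± 0.20 (adjusted p = 0.00533). NEIL2 was at 54.3, 51.8 and 41.5 CPM, again below every cisplatin library (-0.95 ± 0.20, adjusted p = 0.00503). NTHL1 was at 48.0, 47.7 and 37.5 CPM, also without overlap (-0.69 ± 0.20, adjusted p = 0.0207). MPG was at 16, 16.1 and 14.0 CPM, below every cisplatin library and overlapping the untreated ones (-0.85 ± 0.26 against cisplatin, adjusted p = 0.0293). For both endonucleases of the flap and abasic steps the fall was larger but depended on the cisplatin libraries. APEX2 was at 33.1, 31.6 and 29.3 CPM, all below cisplatin replicate 1 at 34.7 CPM (-1.12 ± 0.28, adjusted p = 0.00902). FEN1 was at 108.7, 83.4 and 106.7 CPM, of which 2 values were above cisplatin replicate 1 at 103.0 CPM, so the groups overlapped (-1.15 ± 0.28, adjusted p = 0.00819).

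The other genes did not pass this test. APEX1 was at 78.2, 61.3 and 62.7 CPM with Tranilast, below all cisplatin libraries, with a log2 difference of -0.41 ± 0.17 (adjusted p = 0.0817). XRCC1 was at 13.0, 18.3 and 12.4 CPM (0.61 ± 0.30, adjusted p = 0.153). LIG3 was at 43.2, 45.2 and 45.1 CPM (0.28 ± 0.22, adjusted p = 0.366) and OGG1 at 30.5, 32.2 and 27.8 CPM (0.24 ± 0.20, adjusted p = 0.398). All 3 had means above that of cisplatin alone, within overlapping groups.

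Cisplatin replicate 2 had the highest UNG, NEIL2, APEX2 and FEN1 values of its group. Without it only UNG (-0.72, adjusted p = 0.0326) and NEIL2 (-0.74, adjusted p = 0.0329) were called, and FEN1 (-0.83, adjusted p = 0.0593) and APEX2 (-0.76, adjusted p = 0.0723) were not. The NTHL1 and MPG calls were lost as well, with sizes close to those with all libraries (NTHL1 -0.67, adjusted p = 0.0671, and MPG -0.73, adjusted p = 0.121). Over all genes 722 were lower and 470 higher in that fit, against 1293 and 1169. Without cisplatin replicate 1, UNG, NEIL2, NTHL1, APEX2 and FEN1 were lower, MPG was not called (-0.72, adjusted p = 0.0681) and XRCC1 was higher (0.94, adjusted p = 0.0381). With library size alone the median of all genes moved to 0.46, and 397 genes were called lower and 2582 higher, against 1293 and 1169 with TMM. None of the 10 genes was then called lower, and OGG1 (0.70), XRCC1 (1.09) and LIG3 (0.77) were called higher. The 6 genes still had negative values, of -0.23 to -0.77, below that median. With the ribosomal share as a covariate, 4 of the 10 genes were lower, beside 1528 lower and 1383 higher over all genes.

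**Figure D3:**
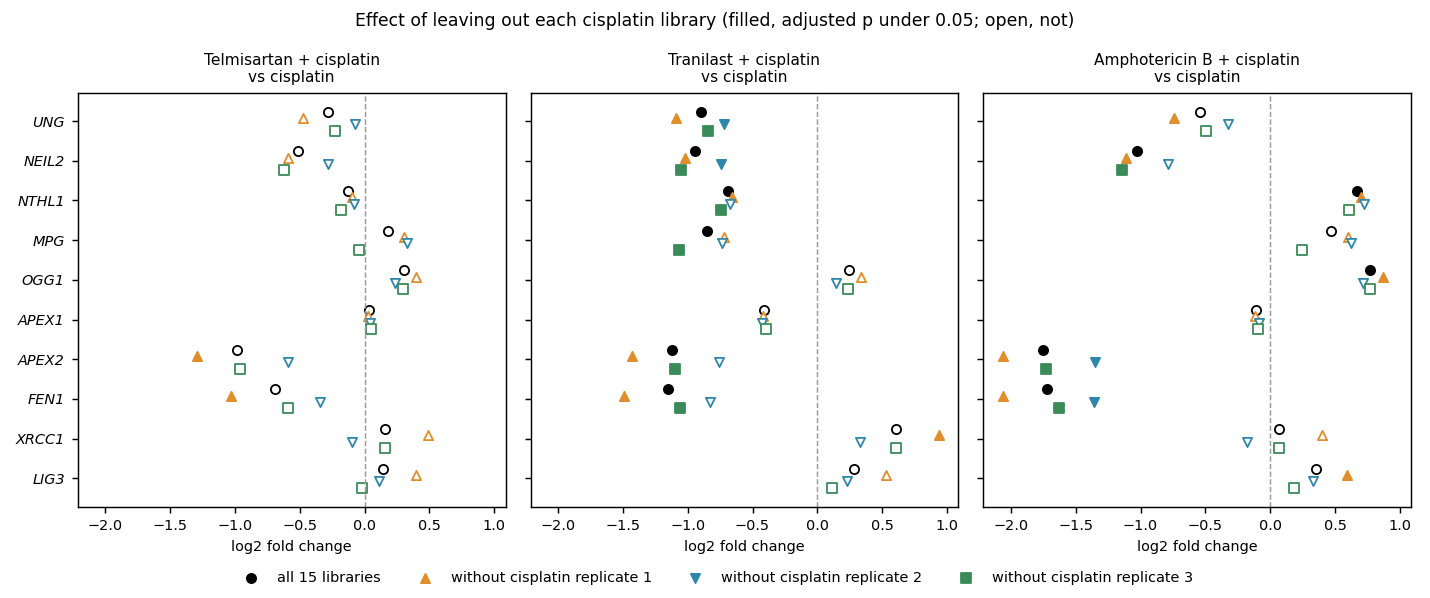
Log2 fold change of each gene (horizontal axis) for each drug plus cisplatin against cisplatin alone, with all 15 libraries and without each cisplatin library in turn (symbols); filled symbols passed an adjusted p of 0.05. Leaving out cisplatin replicate 1 made the FEN1 difference with Telmisartan -1.03, and leaving out cisplatin replicate 2 made it -0.34.

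Telmisartan plus cisplatin gave no called gene among the 10 and none among all 11113 genes tested (0% called, edgeR quasi-likelihood test). At an unadjusted p under 0.05 there were 3 of the 10 (NEIL2, APEX2 and FEN1) and 10.3% of all genes. Over the whole table the edgeR likelihood ratio test called 13 genes lower and 11 higher and DESeq2 42 lower and 13 higher, with none of the 10 among them. FEN1 was at 149.5, 118.8 and 143.4 CPM, between cisplatin replicate 1 and the other cisplatin libraries (-0.69 ± 0.28, adjusted p = 0.393). APEX2 was at 30.6, 40.9 and 32.8 CPM (-0.98 ± 0.28, adjusted p = 0.300). Without cisplatin replicate 1, both were called lower, FEN1 by 1.03 (adjusted p = 0.00797) and APEX2 by 1.29 (adjusted p = 0.00534) on the log2 scale. In the same fit 288 of all genes were lower and 265 higher. Without cisplatin replicate 2 the differences shrank to -0.34 for FEN1 and -0.59 for APEX2. With all libraries and the ribosomal share as a covariate, APEX2 was called lower (-0.88, adjusted p = 0.0376) and FEN1 was not (-0.49, adjusted p = 0.161). That fit called 198 of all genes lower and 135 higher.

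Among the glycosylases, UNG was at 210.8, 196.6 and 218.8 CPM with Telmisartan, inside the cisplatin range (-0.28 ± 0.19, 95% interval -0.69 to 0.13). NEIL2 was at 65.3, 77.9 and 56.4 CPM, below all cisplatin libraries without passing the test (-0.51 ± 0.20, adjusted p = 0.392). In NTHL1 the library that stood apart was also the lowest, at 71.4, 81.2 and 45.4 CPM, and MPG likewise, at 39.8, 32.6 and 22.8 CPM. Without Telmisartan replicate 3 the NTHL1 difference changed from -0.13 to 0.10. OGG1 was at 36.2, 32.6 and 26.1 CPM, APEX1 at 94.9, 90.6 and 89.5 CPM, XRCC1 at 10.7, 10.5 and 10.7 CPM and LIG3 at 30.1, 40.9 and 49.5 CPM. Each of these overlapped the cisplatin libraries. When cisplatin replicate 1 and Telmisartan replicate 3 were both left out, UNG (-0.51, adjusted p = 0.0188), APEX2 (-1.24) and FEN1 (-1.06) were called lower, and over all genes 1403 were then lower and 1400 higher, against none with all libraries.

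With Amphotericin B plus cisplatin, NEIL2, APEX2 and FEN1 were lower than with cisplatin alone, while NTHL1 and OGG1 were higher. The other 5 genes did not pass the test. Of all genes, 9.01% were lower and 4.21% higher. The median log2 fold change was -0.02 over the 10 genes and -0.04 over all genes. APEX2 is also in a category of cell cycle genes that the study drew from these libraries for Amphotericin B, so its direction is not independent evidence. APEX2 was at 19.2, 16.04 and 25.3 CPM, below every cisplatin library and overlapping the untreated ones (-1.75 ± 0.31 against cisplatin, adjusted p = 0.00406). FEN1 was at 61.2, 57.7 and 82.0 CPM, below every cisplatin and above every untreated library (-1.72 ± 0.29, adjusted p = 0.00404). NEIL2 was at 54.8, 47.3 and 36.5 CPM (-1.03 ± 0.21, adjusted p = 0.00729). Each of these 3 genes was lower in all Amphotericin B libraries than in any cisplatin library, as were 13.8% of all genes.

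NTHL1 was at 108.8, 120.3 and 111.1 CPM, the highest of the 5 conditions, and exceeded every cisplatin library (0.67 ± 0.20, adjusted p = 0.0374). OGG1, which cisplatin alone did not move past the test, was at 41.2, 40.1 and 49.2 CPM, above all other libraries (0.77 ± 0.21, adjusted p = 0.0223). Neither call held without cisplatin replicate 2, without cisplatin replicate 3 or with library size scaling, and the NTHL1 call fell in 14 of 27 alternatives. The sizes changed little when a library was left out: without cisplatin replicates 2 and 3 in turn they were 0.72 and 0.61 for NTHL1 and 0.71 and 0.77 for OGG1. MPG was at 29.9, 37.7 and 47.0 CPM (0.47 ± 0.26, adjusted p = 0.236) and UNG at 199.1, 166.8 and 155.8 CPM (-0.54 ± 0.20, adjusted p = 0.0728). Without cisplatin replicate 1 UNG was called lower (-0.74, adjusted p = 0.00344). APEX1 was at 83.2, 90.6 and 74.5 CPM, XRCC1 at 10.7, 8.0 and 11.2 CPM and LIG3 at 39.8, 49.7 and 50.7 CPM. In these last 3 genes the groups overlapped. LIG3 was called higher without cisplatin replicate 1 (0.59, adjusted p = 0.0467). Over the 10 genes, 7 were called without cisplatin replicate 1 and 2 (APEX2 and FEN1) without cisplatin replicate 2. The calls over all genes moved likewise, to 2063 lower and 1742 higher without replicate 1 and to 144 and 40 without replicate 2. With library size alone, or with the ribosomal share as a covariate, NEIL2, APEX2 and FEN1 were called, all lower. Over all genes 1001 were lower and 468 higher, against 850 and 242 with library size alone and 380 and 158 with the covariate. Upper quartile factors gave 727 and 603.

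The drugs were also compared with each other, which does not involve the cisplatin libraries except through the shared estimate of spread. NTHL1 was lower with Tranilast than with Amphotericin B (-1.36 ± 0.20, adjusted p = 0.000808), as were MPG (-1.31 ± 0.27, adjusted p = 0.00194) and OGG1 (-0.53 ± 0.20, adjusted p = 0.0434), while 16.4% of all genes were lower and 19.7% higher. All 3 are glycosylases, and their libraries did not overlap between these drugs, as in 23.3% of all genes. None of the 3 was called with the ribosomal share as a covariate, which differs between these drugs in every library. In that fit 11 of all genes were lower and 75 higher, against 1817 and 2186 without the covariate. With library size alone the median of all genes moved from 0.15 to 0.80, and the calls over all genes from 1817 lower and 2186 higher to 763 lower and 5313 higher (RLE factors gave 2105 and 1655), and 2 of the 10 were lower and 4 higher. FEN1 (0.57, 95% interval -0.03 to 1.18) and APEX2 (0.63, 95% interval -0.02 to 1.28) had higher means with Tranilast and did not pass. Between Tranilast and Telmisartan 1 gene was called, MPG, lower with Tranilast (-1.03 ± 0.26, adjusted p = 0.0468), while 1.75% of all genes were lower and 0.585% were higher. This MPG call was lost in 12 of the 15 fits that left out 1 library, and with limma-voom. Between Telmisartan and Amphotericin B none of the 10 and none of all genes passed (0% called, edgeR), with 5 of the 10 and 20.5% of all genes at an unadjusted p under 0.05. The edgeR likelihood ratio test called 2 of the 10 there and DESeq2 called 1. Over all genes the former called 128 lower and 332 higher, and DESeq2 64 and 120.

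Against untreated cells, 4 of the 10 genes were higher with Tranilast plus cisplatin (UNG, NTHL1, APEX2 and FEN1), 7 with Telmisartan plus cisplatin (UNG, NEIL2, NTHL1, MPG, APEX1, APEX2 and FEN1) and 5 with Amphotericin B plus cisplatin (UNG, NTHL1, MPG, OGG1 and FEN1), and none was lower. OGG1, which did not pass the test with cisplatin alone, was 0.59 above untreated cells with Amphotericin B (adjusted p = 0.0240). Over all genes the shares higher were 2.44%, 12.8% and 17.6%, and the shares lower 5.66%, 15.8% and 23.3%. With library size alone the calls over all genes moved from 629 lower and 271 higher to 396 and 176 with Tranilast. They moved from 1761 and 1423 to 2053 and 627 with Telmisartan, and from 2587 and 1961 to 4804 and 887 with Amphotericin B. In that scaling 3, 4 and 3 of the 10 genes were higher, and 1 was lower with Amphotericin B. UNG was above untreated cells in all 3 drug conditions, by 1.54 with Tranilast, 2.16 with Telmisartan and 1.90 with Amphotericin B on the log2 scale. FEN1 did so by 1.94, 2.40 and 1.36, and NTHL1 by 1.03, 1.59 and 2.39. APEX2 was 0.97 above untreated cells with Tranilast (adjusted p = 0.0441) and 0.34 above with Amphotericin B (95% interval -0.33 to 1.02). NEIL2 with Tranilast (0.48, adjusted p = 0.178) and with Amphotericin B (0.39, adjusted p = 0.155) did not differ past the threshold from untreated cells, although its libraries did not overlap with them. MPG with Tranilast had a difference of 0.01 from untreated cells, with a 95% interval from -0.54 to 0.57.

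Ordered by mean level over the 5 conditions, neighbouring conditions mostly did not differ past the threshold. For UNG the order was cisplatin (253.2 CPM), Telmisartan (208.7 CPM), Amphotericin B (173.9 CPM), Tranilast (136.4 CPM) and untreated (46.7 CPM), and only the last step passed. FEN1 ran from cisplatin (221.1 CPM) through Telmisartan (137.2 CPM), Tranilast (99.6 CPM) and Amphotericin B (67.0 CPM) to untreated (26.02 CPM), and again only the last step passed (adjusted p = 0.00197). NTHL1 was led by Amphotericin B (113.4 CPM), and the steps from there to cisplatin (71.5 CPM) and from Tranilast (44.4 CPM) to untreated (21.7 CPM) passed. In MPG the step from cisplatin (27.8 CPM) to Tranilast (15.4 CPM) passed. In NEIL2, OGG1, APEX1, APEX2, XRCC1 and LIG3 no neighbouring conditions differed past the threshold. The F statistic over the 5 conditions ranked UNG 20th, NTHL1 28th and FEN1 60th of 11113 genes, and XRCC1 9287th and LIG3 8588th.

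Among themselves, over the 15 libraries, the log2 CPM of APEX2 and FEN1 had a Pearson r of 0.92, UNG and FEN1 0.91, NEIL2 and APEX2 0.86, and NTHL1 and MPG 0.85. LIG3 ran opposite to FEN1 (r = -0.75) and APEX2 (r = -0.72). These values are a description over libraries that share conditions, depth and scaling. Of all other genes tested, the 5 with the highest r to UNG, the glycosylase with the largest F, were CCND3 (0.98), ORC6 (0.98), TPRN (0.97), PIDD1 (0.97) and SRRT (0.97). CCND3 is a cyclin of the G1 phase and ORC6 a subunit of the origin recognition complex. For FEN1 they were TMEM109 (0.98), GMNN (0.97), KLHL21 (0.96), ASF1B (0.96) and CDCA5 (0.96), the last being replaced by CDK2 (0.96) with a smaller prior count. GMNN blocks relicensing of origins, ASF1B is a histone chaperone and CDCA5 holds sister chromatids together. GMNN was at 29.6 CPM on average in untreated cells, 101.4 with cisplatin, 75.4 with Telmisartan, 60.6 with Tranilast and 54.4 with Amphotericin B.

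**Figure D4:**
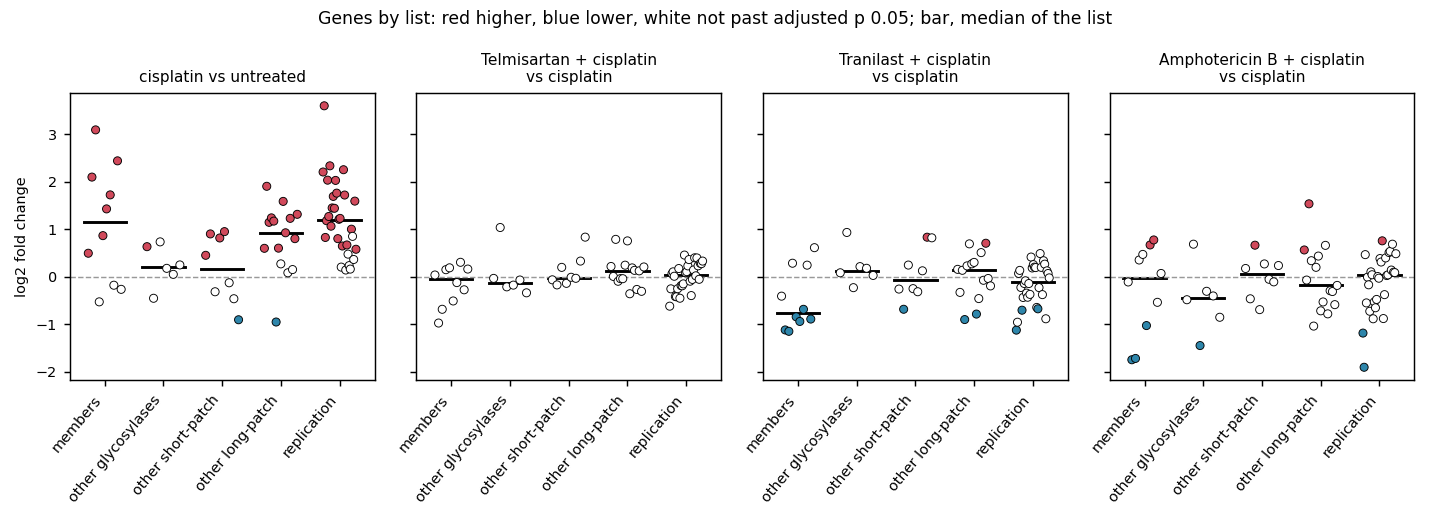
Log2 fold change (vertical axis) of the 10 genes, of the other base excision repair genes by role and of DNA replication genes in 4 comparisons; red points passed an adjusted p of 0.05 as higher, blue as lower, and bars mark the median of each list. With cisplatin the medians were 1.14 for the 10 genes, 0.21 for other glycosylases, 0.16 for other short-patch genes, 0.92 for other long-patch genes and 1.19 for replication genes.

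The rest of the pathway was read from a list of 30 other base excision repair genes, of which 29 passed the filter (APLF did not, with 0 to 12 counts). With cisplatin 16 of the 29 rose and 2 fell, beside 21.1% of all genes higher and 23.6% lower, and the median log2 fold change was 0.60, beside -0.01 over all genes. By role, 11 of 15 long-patch genes, 4 of 8 short-patch and single-strand break genes and 1 of 6 other glycosylases were higher, and the difference between these groups was not tested. POLE3, a small subunit of DNA polymerase epsilon, rose from 206.0 to 617.4 CPM (1.58 ± 0.18, adjusted p = 8.02e-06). RFC5, a subunit of the clamp loader, rose from 19.2 to 47.5 CPM (1.31 ± 0.22, adjusted p = 0.000164). PCNA, the sliding clamp that FEN1 binds, rose from 25.6 to 95 CPM (1.90 ± 0.33, adjusted p = 0.000238). The 2 that fell were POLD4, the smallest subunit of DNA polymerase delta (-0.96, adjusted p = 0.0049), and TDP1, which frees DNA ends blocked by topoisomerase (-0.91, adjusted p = 0.0205). Of 30 genes of DNA replication, 23 rose with cisplatin and none fell, with a median of 1.19, to be read beside the same shares and median of all genes. Without cisplatin replicate 2, 10 of the 29 were called, beside 1892 lower and 1674 higher over all genes. With library size alone 8 of the other repair genes were called, 5 higher and 3 lower, and 15 replication genes, all higher. Over all genes 3351 were then lower and 1019 higher.

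Tranilast lowered 3 of the 29 and raised 2, counts near the shares of all genes (11.6% lower and 10.5% higher). POLE3 (-0.79, adjusted p = 0.00596), HMGB1, a chromatin protein (-0.69, adjusted p = 0.0124), and POLD2, a subunit of DNA polymerase delta (-0.91, adjusted p = 0.0254), were lower. RFC3 of the clamp loader (0.70, adjusted p = 0.0111) and POLL, DNA polymerase lambda (0.83, adjusted p = 0.0324), were higher. HMGB1 is in the study's own category for Tranilast as well. The median of these 29 genes was 0.12 and that of the replication genes -0.12, beside -0.77 for the 10 genes. None of the 6 other glycosylases and 3 of the 30 replication genes were lower with Tranilast, whereas none of the latter was higher. The 3 of 30 are also near the share of all genes that were lower. Without cisplatin replicate 2, 2 of the 29 and 1 replication gene were called, beside 722 lower and 470 higher over all genes. Under library size scaling 9 of the 29 and 7 replication genes were called, all of them higher, beside 397 lower and 2582 higher over all genes.

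Amphotericin B lowered 1 of the 29, the glycosylase NEIL1 (from 13.8 to 5.0 CPM, -1.45, adjusted p = 0.0231), and raised 3, beside 9.01% of all genes lower and 4.21% higher. These were POLD1, the catalytic subunit of DNA polymerase delta (from 9.6 to 27.7 CPM, 1.53, adjusted p = 0.00996), PARP1, a sensor of strand breaks (0.66, adjusted p = 0.0136), and LIG1, the ligase of the long-patch route (0.56, adjusted p = 0.0417). Without cisplatin replicate 2 none of the 29 was called, and without cisplatin replicate 1 there were 12. Over all genes these fits gave 144 lower and 40 higher, and 2063 and 1742. Of the 30 replication genes 2 were lower and 1 higher with Amphotericin B, close to those shares, and 14 were called without cisplatin replicate 1. With Telmisartan none of the 29 and none of the 30 passed the edgeR test, and 3 and 5 had an unadjusted p under 0.05.

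Several of the 10 genes overlap another gene in the GENCODE 29 annotation, and the use of strand in counting is not given in the sources used here, so that reads of the partners cannot be told apart for certain. The partners were TSC2 for NTHL1, NPRL3 for MPG, CAMK1 and TADA3 for OGG1, PIP4P1 for APEX1, TMEM258 and FADS2 for FEN1, and CCT6B and RFFL for LIG3. TMEM258, on the strand opposite FEN1, had 389 to 647 counts per library, and FADS2, on the same strand, 29 to 91. ALAS2 beside APEX2 was at 0 in every library, PINLYP beside XRCC1 had at most 4 counts, and UNG and NEIL2 had no such partner. The pseudogenes UNGP1, UNGP3 and FEN1P1 had 0 counts in every library.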

How the data were processed

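Total RNA (100 ng) of each culture was made into QuantSeq 3′ libraries and read in single-end mode at 75 bp on a NextSeq500. Raw read counts per Ensembl gene were deposited by the authors, 1 table per library, as whole numbers without normalization. Per the submitters' processing notes, STAR 2.3.0, HTSeq and the build hg19 are named, without their roles; the annotation and the use of strand are not given in the sources used here. Libraries were grouped by their labels. Genes were filtered with filterByExpr by condition and tested with edgeR 4.0.16 in R 4.3.3 (limma 3.58.1): TMM factors, a quasi-likelihood fit of all 15 libraries with 1 term per condition, and Benjamini-Hochberg adjustment over the genes tested in each of 10 pairwise comparisons (threshold 0.05). SE was |log2 fold change| divided by √F, and intervals are 95%. The likelihood ratio test of edgeR, DESeq2 1.42.0, limma-voom, other scaling, other filters, a replicate block and left-out libraries were alternatives. The fit was also run on simulated counts, with the same spread in all conditions and no library apart from its replicates. That run cannot show how the calls hold where libraries stand apart.

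All 10 genes are named in every main comparison. From the other repair genes, those past the threshold with the smallest adjusted p were named, up to 3 per direction and comparison, and the 5 genes of highest correlation (log2 CPM, prior count 2) with the glycosylase and the downstream enzyme of largest F; all others were named after their values were seen. The members and the gene lists were chosen with earlier results of these data known. Gene names and overlaps came from GENCODE 29 on another build, so only names and relations are given for genes, and promoter sequences from the RefSeq tables.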

Additional observations from a re-analysis of the deposited data

How the results depend on the processing

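Of the log2 fold changes of the 10 genes in the 4 comparisons of cisplatin with untreated cells and of each drug with cisplatin, under 27 alternatives, and the 10 correlations under another prior count, 995 values kept their direction and side of the threshold, 53 lost and 28 gained a call, and 14 changed sign, none of them called in the reported fit. The other 6 comparisons were rerun for counts of calls, not gene by gene. The rises of UNG, NEIL2, NTHL1, APEX2 and FEN1 with cisplatin, and the falls of APEX2 and FEN1 with Amphotericin B, were called in all 27. Where a fit left 2 libraries in a condition, the spread was pooled over the others. Counts were lowest for XRCC1, at 10 to 67 per library, and the part of depth in its results was not tested. Except where a setting removes libraries or genes, the cause of a change was not tested.

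The sign changes were XRCC1 with cisplatin (0.00616 without cisplatin replicate 2) and APEX1 with Tranilast (0.0359 with library size only). With Telmisartan they were NTHL1 (0.0951 without Telmisartan replicate 3 and 0.131 without it and cisplatin replicate 1), MPG (-0.0391 without cisplatin replicate 3 and -0.0145 without Telmisartan replicate 1), XRCC1 (-0.0995 without cisplatin replicate 2) and LIG3 (-0.0211 without cisplatin replicate 3 and -0.0461 without Telmisartan replicate 3). With Amphotericin B against cisplatin, XRCC1 gave -0.117 with library size only, -0.00104 with no filter, -0.176 with the ribosomal covariate, -0.179 without cisplatin replicate 2 and -0.0234 without Amphotericin B replicate 3. With 1 library left out in turn, the ranges were -0.598 to 0.00616 for XRCC1 with cisplatin. With Telmisartan they were -0.304 to 0.0951 for NTHL1, -0.0391 to 0.396 for MPG, -0.0995 to 0.486 for XRCC1 and -0.0461 to 0.394 for LIG3, and with Amphotericin B -0.179 to 0.394 for XRCC1.

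Of the 10 genes, the reported calls were 7 with cisplatin, 6 with Tranilast, 0 with Telmisartan and 5 with Amphotericin B. With library size only the calls were 3 for Tranilast against cisplatin, all higher, whereas the 6 reported were all lower. They were 3 for Amphotericin B against cisplatin, all lower, and 4 for Telmisartan against untreated, all higher. They were 0 for Tranilast against Telmisartan and 6 for Tranilast against Amphotericin B, 2 lower and 4 higher. Over all genes 397 were lower and 2582 higher for Tranilast, and 850 and 242 for Amphotericin B, against cisplatin. For the others, in that order, they were 2053 and 627, 1 and 0, and 763 and 5313. With the ribosomal share as covariate the calls among the 10 were 1 for Telmisartan and 3 for Amphotericin B against cisplatin. They were 3 for Amphotericin B against untreated, 2 for Tranilast against Telmisartan and 0 for Tranilast against Amphotericin B. Over all genes 198 were lower and 135 higher for Telmisartan, and 380 and 158 for Amphotericin B, against cisplatin. For the others, in that order, they were 1283 and 875, 102 and 287, and 11 and 75. Without cisplatin replicate 1 and Telmisartan replicate 3 together the calls among the 10 were 3 for Telmisartan and 8 for Amphotericin B against cisplatin. They were 6 for Tranilast against Telmisartan, 6 for Tranilast against Amphotericin B and 1 for Telmisartan against Amphotericin B. Calls over all genes rose in these fits too, to 1403 lower and 1400 higher for Telmisartan and 2550 and 2305 for Amphotericin B against cisplatin, and to 1936 and 2156 for Tranilast against Telmisartan (reported: 0 and 0, 1001 and 468, 195 and 65). For Tranilast and Telmisartan against Amphotericin B they were 2392 and 3107, and 36 and 91 (reported: 1817 and 2186, 0 and 0). With only the 6 libraries compared the calls among the 10 were 2 for Amphotericin B against cisplatin, 0 for Tranilast against Telmisartan and 6 for Tranilast against Amphotericin B. Over all genes these fits gave 100 lower and 31 higher, 0 and 0, and 2673 and 2385. With no filter beyond 1 count the calls among the 10 were 3 for Amphotericin B against cisplatin and 1 for Telmisartan against Amphotericin B. Over all genes they were 1316 lower and 622 higher, and 186 and 670. Among the 10, Tranilast against Telmisartan gave 2 by the likelihood ratio test, 4 by DESeq2, 0 by limma-voom and 0 with upper quartile factors, beside 1 reported. Over all genes these gave 661 lower and 379 higher, 795 and 279, 6 and 1, and 112 and 29, beside 195 and 65. Telmisartan against Amphotericin B gave 2 by the likelihood ratio test and 1 by DESeq2, beside 0. Over all genes these gave 128 lower and 332 higher, and 64 and 120, beside 0 and 0.

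Of the other repair genes, with library size only 8 were called with cisplatin (18 reported) and 9 with Tranilast, all higher (5 reported, 3 lower and 2 higher). Over all genes that scaling gave 3351 lower and 1019 higher with cisplatin (reported: 2622 and 2345). With Tranilast it gave 397 and 2582 (reported: 1293 and 1169). The likelihood ratio test called 8 with Tranilast, beside 1603 lower and 1535 higher over all genes. With Telmisartan the covariate gave 1 and the removal of both libraries 10. Over all genes these 2 fits gave 198 lower and 135 higher, and 1403 and 1400 (reported: 0 and 0). With Amphotericin B (4 reported) the likelihood ratio test gave 8, no filter 7, the 6 libraries 0, the covariate 2 and the removal of both libraries 16. Over all genes, in that order, these fits gave 1382 lower and 779 higher, 1316 and 622, 100 and 31, 380 and 158, and 2550 and 2305. The reported calls over all genes were 1001 and 468. Of the replication genes, library size only gave 15 with cisplatin (23 reported) and 7 with Tranilast, all higher (3 reported, all lower). With Tranilast the 6 libraries gave 1, the covariate 11 and the removal of both libraries 12, and with Telmisartan the last pair gave 1 and 11. Over all genes the Tranilast fits gave 968 lower and 789 higher, 1528 and 1383, and 2057 and 2032. With Amphotericin B (3 reported) the likelihood ratio test gave 6, DESeq2 5, no filter 6, the 6 libraries 0, the covariate 1 and the removal of both libraries 14.

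Leaving out each of the 15 libraries in turn gave 5 to 8 of the 10 genes with cisplatin, 2 to 6 with Tranilast, 0 to 2 with Telmisartan and 2 to 7 with Amphotericin B. Against untreated cells it gave 3 to 4, 6 to 7 and 4 to 5 in the same order of drugs. It gave 0 to 3 for Tranilast against Telmisartan, 2 to 5 for Tranilast against Amphotericin B and 0 to 2 for Telmisartan against Amphotericin B. The other repair genes ranged over 10 to 18, 2 to 8, 0 to 0 and 0 to 12 and the replication genes over 20 to 25, 1 to 7, 0 to 2 and 1 to 14 in the first 4 comparisons.

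The replicate numbers were not found to pair the samples: same-numbered libraries had a mean correlation of deviations of 0.02 (range -0.235 to 0.631), others -0.0115, and 5 of 15 libraries correlated best with their own number. With a replicate block the counts of called genes among the 10 were 7, 6, 0 and 5 in the first 4 comparisons, as reported, and 2 in place of 3 for Tranilast against Amphotericin B. Over all genes the block gave 1807 lower and 2166 higher for Tranilast against Amphotericin B, beside 1817 and 2186 reported.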
